A study of Mus musculus with 4 samples.

Results

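Kallikrein-rich duct cells of the mouse submandibular gland (SMG) and sublingual gland (SLG) were chosen from single-cell RNA sequencing (scRNA-seq) counts, and 698 of 15707 barcodes were members (4.44%, exact binomial 95% interval 4.13% to 4.78%). A barcode was a member where *Klk1b9*, *Klk1b11* and *Klk1b26* together reached 50 unique molecular identifiers (UMIs, counted molecules) per 10000 of its UMIs. It also had to hold less than 30% *Mucl2*, an abundant serous acinar product, at most 1 UMI of *Ascl3* and *Foxi1*, at most 1 UMI of *Slc13a2* and *Slc9a3*, and no UMI of *Ptprc*, the pan-leukocyte marker. The threshold on the 3 kallikreins held for 1157 barcodes. The limit on *Mucl2* removed 204 of them, the limit on *Ascl3* and *Foxi1* removed 231, the limit on *Slc13a2* and *Slc9a3* removed 0, and the limit on *Ptprc* removed 24. These genes chose the members, so their values are descriptions.

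The glands came from wild-type female C57BL/6N mice, 6 to 8 weeks old and in their physiological state with no agent given, and were dissociated with collagenases, hyaluronidase, dispase and pancreatin. GEO lists 4 samples of this one group, from 2 mice by the labels and 3 by the study's methods, and the droplet 3′ libraries were deposited as 1 matrix. Every barcode in it carried the same suffix, so samples, mice and glands could not be told apart, and barcodes shared between libraries could not be counted. There was therefore no replicate, nothing was tested, and all intervals are 95% intervals that cover counting error only.

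In the rodent submandibular gland, granular convoluted tubule cells lie between the intercalated and striated ducts and store secretory granules that are released into saliva. The granules hold glandular kallikreins, which are serine proteases, together with growth factors such as epidermal growth factor and with renin. Some kallikreins bind or process these partners, and androgen and thyroid hormone are known to enlarge the tubule, which is less developed in females than in males.

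The 14 glandular kallikrein genes found in the matrix lie in a cluster on chromosome 7, within chr7:43950664-44229618 of GRCm38, a stretch of 279 kb. All are on the plus strand and each has 5 exons. Their coding sequences were 79.6% to 95.2% identical over the 91 pairs, with a median of 86.0%, so how far 3′ reads can separate them bears on every value given here. The last 60 coding bases, all in exon 5 and ending with the stop codon, are shown for the tissue kallikrein gene *Klk1*, for the 3 genes that chose the members, and for *Klk1b22*, which had the largest ratio among the other kallikreins. Capitals mark bases that differ from *Klk1*.
Klk1: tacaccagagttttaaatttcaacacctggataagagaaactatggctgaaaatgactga
Klk1b26: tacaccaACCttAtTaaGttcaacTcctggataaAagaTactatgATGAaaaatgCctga
Klk1b11: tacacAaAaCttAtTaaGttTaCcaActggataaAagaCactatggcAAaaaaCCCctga
Klk1b9: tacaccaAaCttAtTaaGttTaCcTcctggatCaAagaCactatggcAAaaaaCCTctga
Klk1b22: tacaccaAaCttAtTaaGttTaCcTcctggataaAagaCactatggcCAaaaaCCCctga

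These stretches lie at chr7:44229510-44229569 for *Klk1*, chr7:44016861-44016920 for *Klk1b26*, chr7:43999767-43999826 for *Klk1b11*, chr7:43980269-43980328 for *Klk1b9* and chr7:44116817-44116876 for *Klk1b22*, on GRCm38. *Klk1b26* differed from *Klk1* at 14 of the 60 bases, *Klk1b22* at 15, and *Klk1b11* and *Klk1b9* at 16 each. Over the last 500 bases of each annotated transcript, none of the 411 windows of 90 bases in *Klk1b26*, *Klk1b11* or *Klk1b22* was shared with another gene. *Klk1b9* shared 2 windows with the pseudogene *Klk1b14-ps*. *Klk1* and *Klk1b5*, the most alike pair, shared 56 windows (13.6%) with each other. *Klk1b21*, *Klk1b24* and *Klk1b27* shared 44, 37 and 24 windows among themselves, so the values of these 3 genes and of *Klk1* and *Klk1b5* are uncertain to that extent.

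The promoters are shown because most of these genes were high in the same barcodes. Each line gives the 120 bases before the start annotated by RefSeq (GRCm38.p6, plus strand), with the motif TTTAAA in capitals.
Klk1: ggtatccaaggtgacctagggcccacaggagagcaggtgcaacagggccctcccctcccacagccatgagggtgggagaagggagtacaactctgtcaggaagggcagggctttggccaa
Klk1b26: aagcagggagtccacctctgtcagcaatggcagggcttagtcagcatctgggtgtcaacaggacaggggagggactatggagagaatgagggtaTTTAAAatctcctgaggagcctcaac
Klk1b11: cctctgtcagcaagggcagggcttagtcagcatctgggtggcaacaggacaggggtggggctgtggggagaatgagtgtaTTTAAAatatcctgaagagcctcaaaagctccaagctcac
Klk1b9: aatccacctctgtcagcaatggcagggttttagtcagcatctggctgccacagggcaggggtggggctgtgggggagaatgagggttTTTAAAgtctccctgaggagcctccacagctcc
Klk1b22: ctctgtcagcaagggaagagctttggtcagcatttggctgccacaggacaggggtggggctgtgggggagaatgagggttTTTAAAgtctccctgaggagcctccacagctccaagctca

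They lie at chr7:44225240-44225359 (*Klk1*), chr7:44012558-44012677 (*Klk1b26*), chr7:43995757-43995876 (*Klk1b11*), chr7:43975941-43976060 (*Klk1b9*) and chr7:44112553-44112672 (*Klk1b22*). RefSeq gave a promoter for 14 of the 15 listed glandular kallikreins. TTTAAA, which reads the same on both strands, was present in 12 of the 14 windows, all but those of *Klk1* and *Klk1b21*, and in 5.20% of the 120-base windows of all 32851 promoters. TATAAA, searched on both strands, was in 0 of the 14 windows and in 6.34% of all windows. TGTTCT, the core of the binding sequence of steroid receptors, was in 1 of the 14, that of *Klk1b3*, and in 7.68% of all windows. The windows of the 14 genes were 32.4% to 88.5% identical over 91 pairs, with a median of 67.6%, and pairs with *Klk1* had a median of 44.7%. These are letters in windows that depend on the annotated starts, and binding was not measured. The bases ctctgtcag lie near the end of the *Klk1* window but at or near the start of the other windows shown. The *Klk1* window thus does not line up with them, and its low identity and missing TTTAAA are not read as divergence. The *Klk1b21* window ended at chr7:44102291, before the GENCODE start of that gene at 44102328, so the bases between were not searched.

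Members held 1375 to 18926 UMIs, with a median of 2649.5, and a median of 907.5 genes. Over all barcodes the median was 2608 UMIs and 689 genes. Mitochondrial genes took a median of 9.26% of members' UMIs, with a range of 0.898% to 49.97%, against 2.54% over all barcodes. Among the other duct groups described below, the low-kallikrein cells had medians of 9.47% and 1128.5 genes. The *Ascl3* and *Foxi1* cells had 11.9% and 1248 genes, and the *Slc13a2* and *Slc9a3* cells 3.95% and 1863 genes. At least 1 UMI of the simple epithelial keratins *Krt7*, *Krt8*, *Krt18* or *Krt19* was found in 661 of the 698 members (94.7%), and of the epithelial adhesion gene *Epcam* in 74.1%, against 14.97% of lymphoid barcodes. Of the duct keratins, *Krt7* had a UMI in 56.6% of members, against 7.35% of lymphoid barcodes, and *Krt7* and *Krt19* together reached 2 UMIs in 232 members (33.2%). The epithelial markers were thus found in most members, and the duct keratins at 2 UMIs in a minority. Markers of other cell types were sparse: at least 2 UMIs of the list were held by 5 members (0.716%) for basal and myoepithelial cells, 11 (1.58%) for endothelium, 16 (2.29%) for fibroblasts, 33 (4.73%) for macrophages, 24 (3.44%) for lymphoid cells and 0 for Schwann and erythroid cells.

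Acinar products were also counted in members. *Mucl2* took a median of 4.89% of a member's UMIs and at least 15% in 130 members. The demilune cell and parotid protein genes *Dcpp1*, *Dcpp2* and *Dcpp3* took a median of 0.583% but at least 5% in 102 members (14.6%, 12.1% to 17.5%), and 75.3% in the highest. *Smgc*, which encodes submandibular gland protein C, reached 1% in 13 members. Results that these members touch are given with and without the members at 5% *Dcpp* or 1% *Smgc*, which leaves 591.

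The summed value of the 3 choosing kallikreins was 50.3 UMIs per 10000 in the lowest member, 132 in the median and 2225 in the highest, with quartiles of 76.9 and 274. The 3 members just inside the threshold had 50.34, 50.34 and 50.35, and the 3 barcodes just outside had 49.95, 49.85 and 49.80. There was no gap at the threshold: 87 members lay between 50 and 62.5, and 82 barcodes that met the other limits lay between 40 and 50. Among the *Klk1b* genes, *Klk1b26* had the most UMIs in 593 members (85.0%) and *Klk1b11* in 98 (14.0%). *Klk1b5* and *Klk1b9* led in 3 members each and *Klk1b16* in 1, with 15 members tied.

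*Klk1*, which was not in the rule and whose enzyme releases kinins from kininogen, ranged from 0 to 4146 UMIs per 10000 across members, with a median of 1447 and quartiles of 717 and 2293. It was absent from 1 member. *Klk1* thus varied widely at a given level of the other 3 kallikreins, and members with at least 5% *Dcpp* lay mostly at its lower end, as the plot of *Klk1* by member shows. The 14 glandular kallikreins together took 0.661% of UMIs in the lowest member, 17.6% in the median and 51.4% in the highest. In all other barcodes pooled they took 0.481%. Members held 42.9% of all glandular kallikrein UMIs of the matrix.

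**Figure D1:**
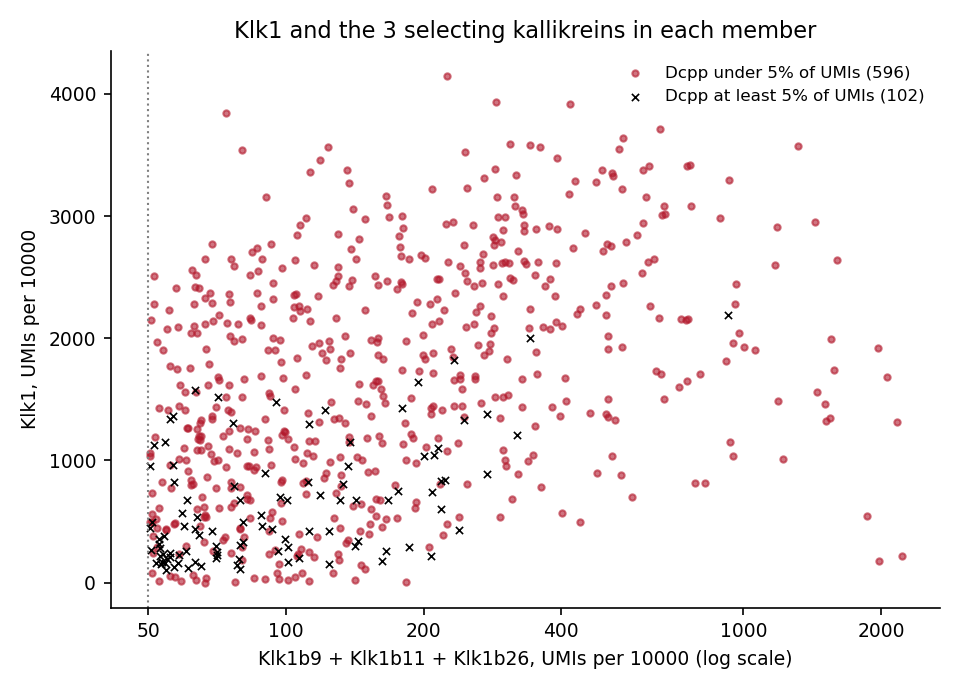
Each point is 1 of the 698 members, with the UMIs per 10000 of *Klk1b9*, *Klk1b11* and *Klk1b26* on a log x axis and of *Klk1* on a linear y axis; the dotted line is the threshold of 50. *Klk1* spans 0 to 4146, and the 102 members with at least 5% *Dcpp* (crosses) lie mostly low on both axes.

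The members were set beside 3 other groups of duct barcodes. Low-kallikrein duct cells (358 barcodes) met the same limits but stayed under 50 UMIs per 10000, held at least 2 UMIs of *Krt7* and *Krt19* and at most 1 UMI of the basal keratins *Krt5* and *Krt14*, and had under 5% *Dcpp* and 1% *Smgc*. *Ascl3* and *Foxi1* are transcription factors of ionocyte-like duct cells, and 1195 barcodes held at least 2 UMIs of them. *Slc13a2* and *Slc9a3*, a dicarboxylate and a sodium-proton exchanger gene, marked 148 barcodes with at least 2 UMIs. The threshold of 50 was reached by 221 of the 1195 and by 0 of the 148. Levels below are UMIs per 10000 UMIs of a group, which are 3′ molecule counts and were not divided by transcript length.

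*Klk1* stood at 1658 (1652 to 1663) in members, 338 in low-kallikrein cells, 446 in *Ascl3* and *Foxi1* cells and 21.6 in *Slc13a2* and *Slc9a3* cells. The pooled level in members was 4.90-fold that in low-kallikrein cells, and the medians per barcode were 1447 and 41.6. Of the choosing genes, *Klk1b26*, whose product can convert prorenin, stood at 198 in members and 5.47 in low-kallikrein cells. *Klk1b11* stood at 52.1 and 5.67, and *Klk1b9*, which encodes an EGF-binding protein, at 24.6 and 1.72. The rule set the direction for these 3.

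Among kallikreins that were not in the rule, *Klk1b22*, which also encodes an EGF-binding protein, stood at 18.3 in members, 4.23 in *Ascl3* and *Foxi1* cells and 0.483 in low-kallikrein cells. That was a 37.9-fold ratio of members to low-kallikrein cells (29.0 to 50.5). *Klk1b3* stood at 6.61 in members and 0.340 in low-kallikrein cells (19.5-fold), and *Klk1b4* at 22.5 and 1.06 (21.1-fold). *Klk1b5* stood at 30.5 and 1.65 (18.5-fold), and *Klk1b16*, which encodes gamma-renin, at 14.6 and 0.644 (22.7-fold). The smallest ratios were those of *Klk1b24*, at 0.857 and 0.215 (3.99-fold), of *Klk1*, given above (4.90-fold), and of *Klk1b27*, at 2.10 and 0.412 (5.11-fold). All 11 were at least 2-fold higher with an interval above 1, but members were chosen on 3 genes of the same cluster in the same contrast, so nothing is read from that count. Over all 8716 genes with at least 20 UMIs in both groups together, 179 genes (2.05%) were at least 2-fold higher and 926 (10.6%) at least 2-fold lower by the same measure.

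Of the related peptidase genes *Klk4* to *Klk15*, 12 in the list, only *Klk8* and *Klk15* had any UMI in members, with 1 each. The plot of kallikrein levels by group shows the order of the groups for each gene: members were above *Ascl3* and *Foxi1* cells, by 1.77 to 2.45 on the log2 scale, for all 14 glandular kallikreins.

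**Figure D2:**
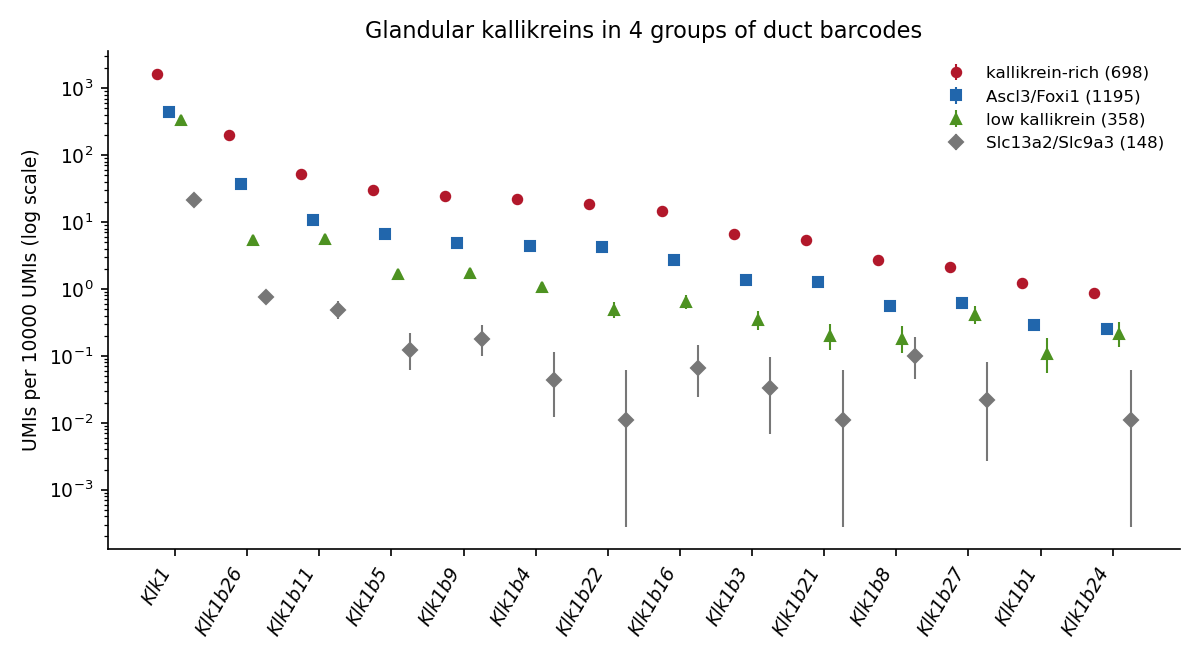
The y axis (log scale) gives UMIs per 10000 UMIs for each glandular kallikrein gene on the x axis, in members (698), *Ascl3*/*Foxi1* cells (1195), low-kallikrein cells (358) and *Slc13a2*/*Slc9a3* cells (148), with exact Poisson 95% bars. Members, which were chosen on *Klk1b9*, *Klk1b11* and *Klk1b26*, are highest for every gene, and nothing is read from that. *Klk1b1* has no UMI in *Slc13a2*/*Slc9a3* cells and is not drawn there.

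Free RNA gives UMIs in droplets that do not express a gene, so lymphoid barcodes (735, with *Ptprc* and at least 2 UMIs of the cytotoxic granule gene *Nkg7*) were counted as well. *Klk1* stood at 52.7 per 10000 there and had a UMI in 72.1% of barcodes, and *Klk1b26* stood at 4.90 and had a UMI in 19.3%, at a median depth of 2079 UMIs. The pooled low-kallikrein level of *Klk1b26* (5.47) was near the pooled lymphoid level, while that of *Klk1* (338) was above it. Per barcode, *Klk1* had a median of 41.6 and an upper quartile of 330 in low-kallikrein cells, against 5.18 and 10.6 in lymphoid barcodes. The pooled 338 thus lay above the upper quartile of low-kallikrein cells and rested on a minority of them. The lymphoid level of the 3 choosing genes rested on a minority of barcodes. Their summed value per 10000 had a median and upper quartile of 0 there, and was 1021 in the highest barcode. *Klk1b26* had a UMI in 52.2% of low-kallikrein cells, above the lymphoid share. Thinned to equal depth, the shares were 27.9% of low-kallikrein cells and 9.12% of lymphoid barcodes. The 3 choosing genes gave 85.9 UMIs per member against 2.88 per lymphoid barcode, and *Klk1* gave 518 against 20.8.

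The makeup of the 3 genes differed between groups. *Klk1b26* made up 72.1% of their UMIs in members, 70.6% in *Ascl3* and *Foxi1* cells, 67.2% in lymphoid barcodes and 42.5% in low-kallikrein cells. *Klk1b11* made up 18.9% in members and 44.1% in low-kallikrein cells. *Klk1* gave 6.03 UMIs for each UMI of the 3 genes in members, 8.43 in *Ascl3* and *Foxi1* cells, 7.22 in lymphoid barcodes and 26.3 in low-kallikrein cells. The groups were set by the sum of these 3 genes, so nothing is read from the differences between members and low-kallikrein cells.

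*Egf* encodes the epidermal growth factor that granular tubules store. *Egf* stood at 7.36 (7.01 to 7.73) in members, 1.99 in *Ascl3* and *Foxi1* cells, 0.474 in low-kallikrein cells, 0.0553 in *Slc13a2* and *Slc9a3* cells and 0.244 in lymphoid barcodes. It was highest in members, 15.5-fold (11.8 to 20.8) over low-kallikrein cells. Without the 10% of barcodes with most UMIs in each group the level in members was 4.61. It was 15.6 with the mean UMIs of a lymphoid barcode, times the number of members, subtracted from each gene's sum, down to 0. The level thus moved by over 1.5-fold with either choice. Subtraction only lowers a count, so the rise to 15.6 comes from the smaller denominator. Lymphoid barcodes held 2904160 UMIs over 735 barcodes, and members 2182169 over 698. *Ren1*, the renin gene, had 27 UMIs in members and 0 in low-kallikrein cells, which makes it at least 4.61-fold higher against a floor of 3 UMIs over the group. Members held 36.0% of all *Egf* UMIs of the matrix and 65.9% of *Ren1*.

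Of 17 growth factor and renin genes, 10 could be compared, and 4 were at least 2-fold higher in members. *Egf* and *Ren1* were among them, and so was *Tgfb2*, a transforming growth factor, which stood at 1.54 against 0.751 (2.05-fold). The GDNF-family ligand *Nrtn*, at 0.160 against 0.501, and the EGF receptor ligand *Tgfa*, at 0.0367 against 0.107, were at least 2-fold lower. The median log2 ratio of the list was 0.38, against -0.40 for all genes compared. *Vegfa*, the vascular growth factor, stood at 1.16 against 0.743, a log2 ratio of 0.65 (0.29 to 1.02).

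At the depth of the data, *Egf* had a UMI in 43.3% of members, 17.6% of *Ascl3* and *Foxi1* cells, 9.50% of low-kallikrein cells and 2.99% of lymphoid barcodes. With every barcode thinned to 1000 UMIs, which left none out, these shares were 24.1%, 7.20%, 3.07% and 0.680%. *Egf* in members was thus above the share in lymphoid barcodes at equal depth.

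Outside the kallikreins and these factors, the genes with the largest ratios by their lower bound were *Scgb1c1*, *Hsd11b1*, *Crisp3* and *Ngfr*. *Crisp3*, a cysteine-rich secretory protein of the salivary gland, stood at 86.9 (85.6 to 88.1) in members and 19.97 in low-kallikrein cells (4.35-fold, 4.16 to 4.55). *Scgb1c1*, a secretoglobin, stood at 3.97 and 0.537 (7.40-fold, 5.69 to 9.78). *Hsd11b1*, the enzyme that regenerates active glucocorticoid, stood at 1.04 and 0.143 (7.30-fold, 4.399 to 13.0). *Ngfr*, a neurotrophin receptor, rested on 74 UMIs in members and stood at 0.339 and 0.0268 (12.6-fold, 4.16 to 62.7). These genes were high in the same group as the kallikreins, and lymphoid barcodes held *Crisp3* at 3.04 and *Scgb1c1* at 0.124.

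Because the kallikreins took so many of the members' UMIs, the scale moved the other genes. With UMIs other than those of kallikrein and serous secretory genes as the denominator, the median log2 ratio of all genes was -0.09, a shift of 0.32, and 351 genes were higher and 420 lower. With members held to the keratin limits of low-kallikrein cells, 511 genes were lower on all UMIs. Higher genes were 16.2% of those past the 2-fold limit on all UMIs and 45.5% on the other scale. Ratios given below are on all UMIs unless stated, and a gene slightly below 0 on that scale can lie above 0 on the other, as *Tfcp2l1* does. The list counts below stand beside 2.05% of all 8716 genes higher and 10.6% lower on all UMIs. On the other scale they stand beside 351 higher and 420 lower of the same 8716.

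Membrane serine peptidases and their inhibitors had 2 of 11 genes higher and 1 lower, with a median log2 ratio of 0.22. *Serpinb1a*, a neutrophil elastase inhibitor, stood at 1.30 in members and 0.331 in low-kallikrein cells (3.93-fold, 2.78 to 5.70). *Hpn*, the transmembrane protease hepsin, was 4.44-fold higher at a level of 0.119. *Serpinb9*, an inhibitor of granzyme B, stood at 0.701 and 2.13. On the other scale 4 of the 11 were higher.

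Luminal duct genes had 1 of 15 higher and 2 lower, with a median of -0.53. *Esrrg*, a nuclear receptor, stood at 0.852 in members and 0.340 in low-kallikrein cells. The transcription factor gene *Elf5* stood at 0.147 and 0.895, and the tight junction gene *Cldn8* at 0.701 and 1.43. *Krt18* stood at 20.8 and 33.2 and *Tfcp2l1*, a duct transcription factor, at 9.09 and 10.5. *Krt7* stood at 4.55 and 10.7, but low-kallikrein cells were chosen to have it. Of 5 intercalated duct genes, 0 were higher, and 2 were lower: the receptor kinase gene *Kit*, at 0.211 and 1.26, and the glutathione transferase gene *Gstt1*, at 0.128 and 0.680.

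Striated and granular ducts take up sodium and chloride from saliva and secrete potassium and bicarbonate. Of 28 salt transport genes, 4 were higher in members and 7 lower, beside 2.05% and 10.6% of all 8716 genes. On the other scale 7 were higher and 4 lower, beside 351 and 420 of the 8716. Among those higher were *Slc5a5*, the sodium-iodide symporter, at 0.179 against 0.0537, and the potassium channel genes *Kcnj15* and *Kcnj16*, at 0.367 against 0.161 and at 0.412 against 0.188. The chloride importer *Slc12a2* was lower, at 4.15 against 15.2, as were the potassium channel gene *Kcnma1*, at 0.257 against 1.01, and the carbonic anhydrase gene *Car2*, at 0.412 against 1.12. *Slc4a11*, *Nedd4l*, *Kcnk1* and *Bsnd* were the other genes at least 2-fold lower, with log2 ratios of -1.86, -1.26, -1.15 and -1.14.

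Other sodium transport genes were nearer each other in both groups. *Atp1b1*, a sodium pump beta subunit, stood at 18.6 in members and 18.3 in low-kallikrein cells, and *Fxyd2*, the pump's gamma subunit, at 64.4 and 87.1. *Scnn1b*, a subunit of the epithelial sodium channel, stood at 1.98 and 1.55, and its regulator kinase *Sgk1* at 2.71 and 1.45. None of these 4 differed by 2-fold on all UMIs. *Sgk1*, at 1.87-fold (1.57 to 2.24), passes 2-fold on the other scale. Of 7 vacuolar proton pump genes, 2 were lower, *Atp6v1b1* at 0.133 against 0.608 and *Atp6v1g3* with a log2 ratio of -1.04.

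Receptors and responders of steroid and thyroid hormone had 0 of 9 genes past 2-fold in either direction, and 2 higher on the other scale. Secretory pathway genes had 1 of 20 higher, *Sel1l* of the endoplasmic reticulum degradation complex at 1.58 against 0.751, and a median of 0.35. Regulated exocytosis genes had 1 of 8 higher, *Rab27a*, a GTPase of granule docking, at 0.234 against 0.0626. Oxidative phosphorylation genes had 0 of 13 mitochondrial and 0 of 19 nuclear genes past 2-fold, and immediate early and heat shock genes, which respond to dissociation, 0 of 15.

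Innate defence genes had 3 of 11 higher and 2 lower. *Bpifa2*, an abundant salivary lipid-binding protein, stood at 11.4 in members and 2.45 in low-kallikrein cells, and *Pglyrp1*, a peptidoglycan recognition protein, at 1.18 and 0.501. Without the members that held *Dcpp* or *Smgc*, their levels in members were 1.89 and 0.267, below the low-kallikrein levels, and their log2 ratios -0.38 and -0.91. The higher levels of these 2 genes were therefore carried by the Dcpp-holding members. *Lcn2*, an iron-sequestering protein, stood at 0.160 and 0.0447. *Wfdc18*, a whey acidic protein family gene, was lower, at 10.95 against 76.2, and so was the endotoxin co-receptor gene *Cd14*, with a log2 ratio of -1.06. *Wfdc2* stood at 14.7 and 9.81.

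The genes with the smallest ratios by their upper bound were *Ptn*, *Esp4*, *Gjb2*, *Wfdc18*, *Dcn*, *Cryab*, *BC006965*, *Ano1*, *S100a6* and *Cp*. *Ptn*, a heparin-binding growth factor, had 3 UMIs in members and a log2 ratio of -5.67 (-7.97 to -4.07). *Ano1*, the calcium-activated chloride channel of acinar cells, stood at 0.0321 in members and 0.367 in low-kallikrein cells. *S100a6*, a calcium-binding protein, stood at 1.32 and 7.49, and *Gjb2*, a gap junction gene, at 0.0825 and 1.07. *Esp4*, which was also at 8.11 in *Slc13a2* and *Slc9a3* cells, stood at 0.0871 and 1.77. *Dcn*, a fibroblast proteoglycan, stood at 0.280 and 2.25, and 5 of 5 fibroblast genes that could be compared were lower in members. The summed level of the 6 fibroblast markers was 0.527 in members and 3.29 in low-kallikrein cells, and its part in the lower levels was not tested. Summed macrophage markers stood at 1.59 and 2.91, and summed lymphoid markers at 0.784 and 0.394, against 42.4 in lymphoid barcodes.

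**Figure D3:**
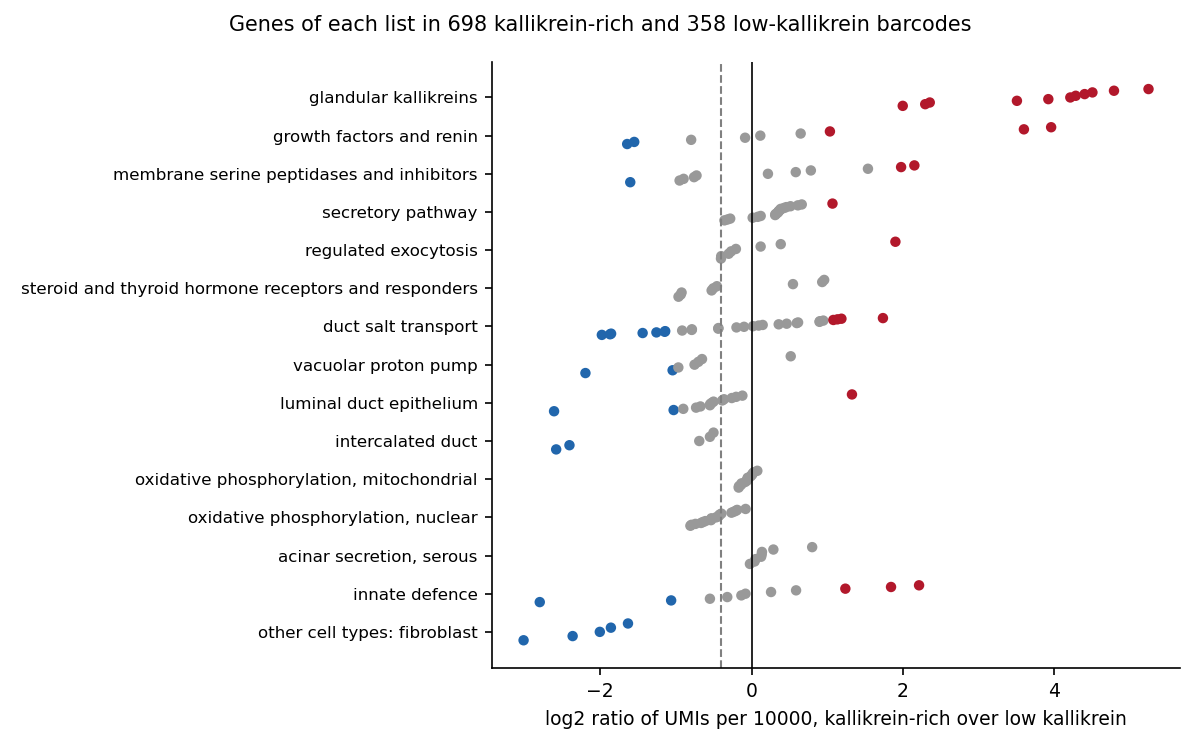
Each point is a gene, placed by the log2 ratio of its UMIs per 10000 in 698 members over 358 low-kallikrein cells (x axis) in its list (y axis); red and blue are at least 2-fold higher and lower with an interval that leaves out 1, and the dashed line is the median of all genes compared (-0.40). Kallikreins lie at the right (median 4.21) and fibroblast genes at the left, and *Ren1*, with no UMI in low-kallikrein cells, is not drawn.

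Variation among members was described by the value that chose them, in tiers of 50 to 100 (264 members), 100 to 200 (186), 200 to 400 (149) and 400 or more (99). From the lowest to the highest tier, the median member held 2334.5, 2540.5, 2832 and 3662 UMIs, and 798, 900, 962 and 1113 genes. Mitochondrial genes took a median of 11.2%, 10.4%, 8.80% and 6.75% of UMIs, and 61, 25, 15 and 1 members held at least 5% *Dcpp*. Depth, mitochondrial share and *Dcpp* thus moved with the tiers, and their part in the differences below was not tested. Levels across tiers are UMIs per 10000 UMIs other than *Klk1* and *Klk1b*, so the kallikreins do not set the scale.

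*Klk1* stood at 1345, 1879, 2723 and 3359 in the 4 tiers, a log2 ratio of 1.32 between top and bottom. *Klk1b22* stood at 3.04, 7.88, 22.4 and 97.9 (log2 ratio 5.01), and *Klk1b27* at 1.95, 2.03, 2.67 and 5.34 (1.45). *Klk1* therefore differed less across the tiers than *Klk1b22* did. Within the choosing genes, *Klk1b26* made up 58.9%, 64.9%, 73.2% and 75.5% of the UMIs and *Klk1b11* 32.3%, 27.8%, 20.5% and 14.1%, and *Klk1* gave 16.4, 10.997, 7.30 and 2.70 UMIs for each of theirs. The tiers were cut on the sum of these genes, so this order is a description.

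*Egf* stood at 1.54, 3.54, 7.32 and 40.3, a log2 ratio of 4.71 (4.42 to 5.02). Without members holding *Dcpp* or *Smgc* the log2 ratio was 4.83. *Ren1* stood at 0.0304 in the lowest tier, on 2 UMIs, and at 0.746 in the highest (log2 ratio 4.62, 2.57 to 7.76). Without members holding *Dcpp* or *Smgc*, the lowest tier had no *Ren1* UMI left, and the log2 ratio had only a lower bound, of 3.245. *Crisp3* stood at 45.9, 80.9, 122 and 294 and *Scgb1c1* at 2.47, 4.10, 5.89 and 11.5. *Egf*, *Crisp3* and *Scgb1c1* were ordered like the tiers, while *Ren1*, at 0.0223 in the second tier and 0.110 in the third, was not.

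Thinned to 1000 UMIs, *Egf* had a UMI in 9.85%, 21.0%, 28.2% and 61.6% of members from the lowest to the highest tier. *Klk1b22* had one in 26.5%, 37.6%, 53.7% and 85.9%, and *Scgb1c1* in 14.0%, 22.6%, 30.9% and 46.5%. These 3 genes kept the order of the tiers at equal total depth. The 1000 UMIs include kallikreins, which took more of them in the higher tiers, so fewer were left for other genes there. *Krt7* did not, with 31.4%, 34.4%, 24.2% and 25.3%.

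**Figure D4:**
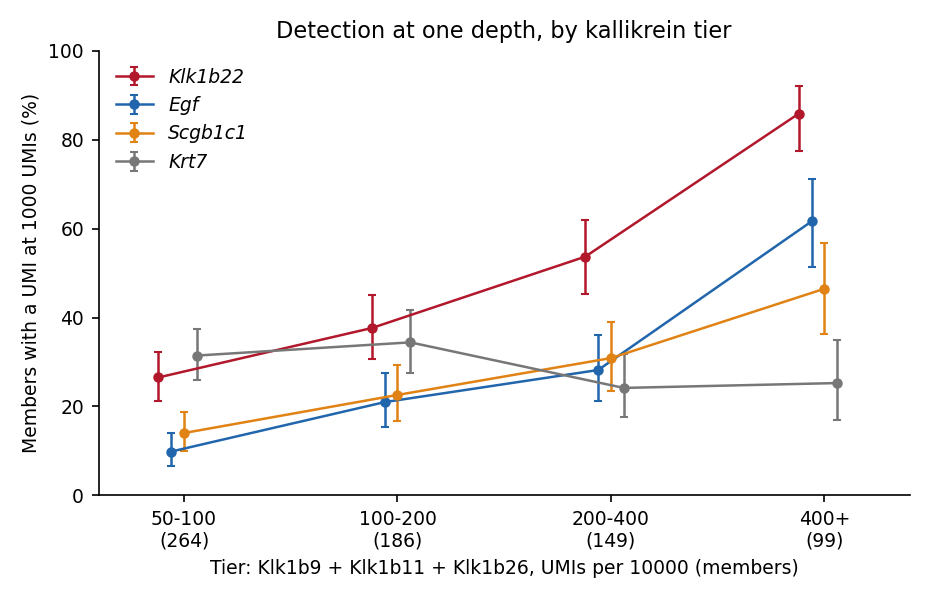
The y axis gives the percent of members with at least 1 UMI of a gene after each barcode was thinned to 1000 UMIs, by tier of the choosing kallikreins (x axis, number of members in brackets), with exact binomial 95% bars. *Egf* is counted in 9.85% of the lowest and 61.6% of the highest tier, while *Krt7* lies between 24.2% and 34.4% throughout. The 1000 UMIs include kallikreins, which take more of them in the higher tiers.

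Of 4991 genes with at least 20 UMIs in the top and bottom tiers together, 358 (7.17%) were at least 2-fold higher in the top tier and 82 (1.64%) at least 2-fold lower, with a median log2 ratio of 0.27. Without members holding *Dcpp* or *Smgc*, 190 of 4703 (4.04%) were higher and 110 (2.34%) lower. Of 20 secretory pathway genes, 12 were higher and 0 lower, with a median of 1.204, and without those members 11 of 19 were higher. The endoplasmic reticulum chaperone *Hspa5* stood at 4.08, 5.01, 6.25 and 9.85 across the tiers, and *Sec61b*, a translocon subunit, at 2.95, 3.87, 5.83 and 7.91. Their log2 ratios were 1.27 and 1.42, and 1.11 and 1.48 without members holding *Dcpp* or *Smgc*. The disulfide isomerase gene *Pdia6* stood at 0.685 in the lowest and 2.31 in the highest tier, the stress-regulated factor *Manf* at 1.07 and 3.81, the chaperone cofactor *Sdf2l1* at 0.183 and 1.12, and *Sel1l* at 1.05 and 3.84. The other 8 of the 20 did not pass the 2-fold limit, among them *Canx*, a lectin chaperone (log2 ratio 0.90), and *Spcs1* of the signal peptidase (0.58).

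Transport and keratin genes did not move together. *Fxyd2* stood at 77.1, 84.2, 82.8 and 81.5 (log2 ratio 0.08), and *Krt18* at 25.7 in the lowest and 22.8 in the highest tier. *Scnn1b* stood at 1.90 and 4.29 (1.17) and *Sgk1* at 2.39 and 5.04 (1.08), while *Slc12a2* stood at 6.27 and 3.92. Of 23 salt transport genes, 3 were higher and 3 lower, and among the latter was *Slc4a11* (-1.76). Without members holding *Dcpp* or *Smgc*, the log2 ratios of *Scnn1b* and *Sgk1* were 0.89 and 0.83, and 0 of 22 salt transport genes were higher and 3 lower. *Serpinb1a*, the elastase inhibitor, stood at 0.853 and 3.77, with 3 of 9 genes of its list higher and 2 of 9 without those members.

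Some acinar and defence genes were lower in the top tier. *Dcpp3* stood at 452 in the lowest and 47.2 in the highest tier (log2 ratio -3.26), and *Bpifa2* at 24.6 and 3.02 (-3.03). Without members holding *Dcpp* or *Smgc* these log2 ratios were 0.14 and -0.10, so the lower levels rested on those members. All 6 *Dcpp* and mucous genes compared and 5 of 9 innate defence genes were lower in the top tier, against 0 of 4 and 0 of 7 without those members. Of 6 serous acinar genes, 0 were lower in either case.

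**Figure D5:**
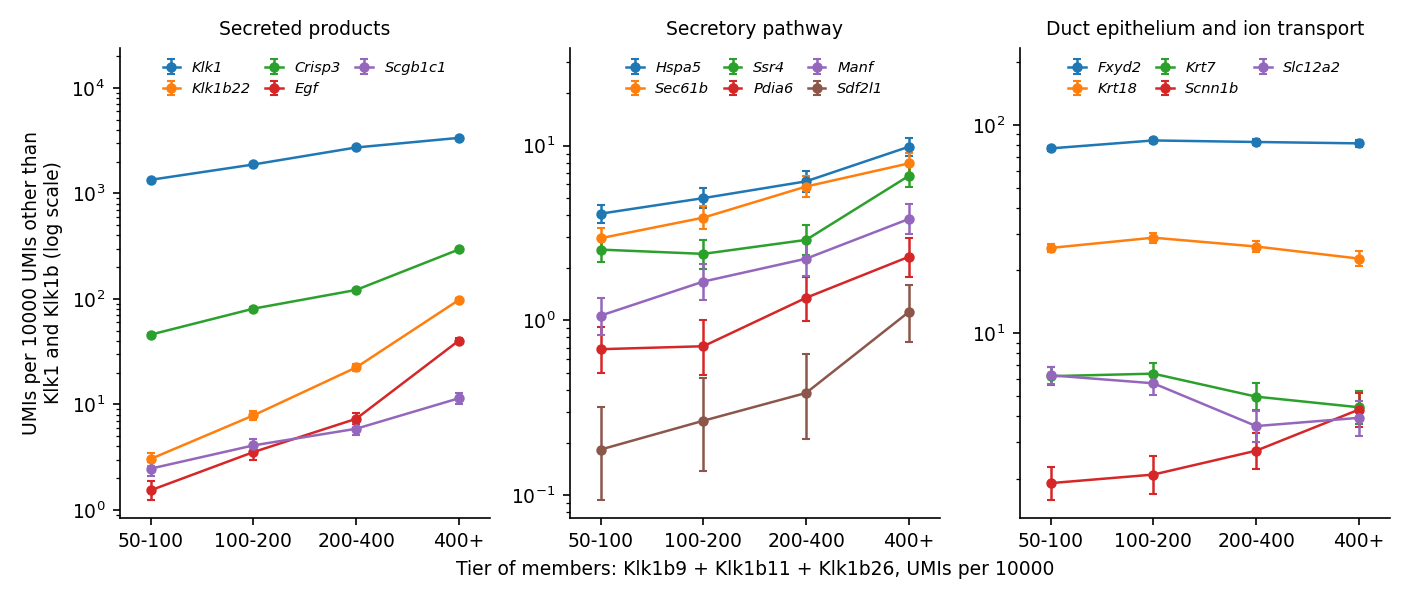
Levels (y axes, log scale, UMIs per 10000 UMIs other than *Klk1* and *Klk1b*, exact Poisson 95% bars) by tier of the choosing kallikreins (x axis) for secreted products, secretory pathway genes and duct epithelial and transport genes. *Egf* goes from 1.54 to 40.3 and *Hspa5* from 4.08 to 9.85, while *Fxyd2* stays between 77.1 and 84.2.

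Across the 698 members, Spearman's rho with the value that chose them was taken for 2670 genes with a UMI in at least 10% of members. It is a description over cells of 1 pooled matrix, whose depth differed and rose with the tiers. The median rho was 0.05. Among *Klk1b* genes outside the rule it was 0.71 for *Klk1b5*, 0.67 for *Klk1b4*, 0.59 for *Klk1b3*, 0.58 for *Klk1b22* and 0.22 for *Klk1b27*. The 10 genes outside the *Klk1b* group with the highest rho included *Crisp3* (0.65), *Klk1* (0.50), *Egf* (0.45), *Scgb1c1* (0.41), *Sec61b* (0.33), *Serpinb6a* (0.32), *Manf* and *Nudt4* (0.30 each) and *Hsp90b1* (0.29). Without members holding *Dcpp* or *Smgc*, rho was 0.64 for *Crisp3* and 0.46 for *Klk1*. The lowest values were those of *Bpifa2* and *Dcpp2*, at -0.18 each, and -0.03 and -0.02 without those members.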

How the data were processed

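Cells of SMG and SLG were profiled by scRNA-seq with a 10x 3′ kit. The authors deposited 1 matrix of UMI counts per gene and barcode (15707 barcodes, 32285 gene symbols). The submitters' processing notes name Cell Ranger 6.0.1, Seurat 4.1.1 and the build mm10. The deposited counts are raw whole numbers, and the number of barcodes equals the number of cells in the study's methods, which state no filter on genes or mitochondrial share. Total depth was 125100595 UMIs, of which members held 2182169.

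Members were found by the rule given above. The members and gene lists were chosen with earlier results of these data known. Counts were summed over each group and divided by its UMIs, times 10000. Levels have exact Poisson intervals, shares exact Clopper-Pearson intervals and ratios exact conditional binomial intervals, at 95%, for counting error only. Genes with at least 20 UMIs in the groups compared were counted as higher or lower when the ratio was at least 2-fold and its interval left out 1. With 8716 intervals at 95%, some leave out 1 by counting error alone. Samples could not be separated, so no test was made. No doublet caller was run, and free RNA was judged from lymphoid barcodes. Named genes were those of 25 lists, the 15 highest and 10 lowest ratios by the bound nearest 0, and the 10 highest rho, some of which are not reported here. The chosen examples from the lists were picked after their values were seen. Alternatives changed the threshold, the limits, a filter of 200 genes and 20% mitochondrial UMIs, the barcodes with most UMIs, the denominator and the averaging, or subtracted free RNA as the mean UMIs of a lymphoid barcode. Intervals came from scipy 1.17.1, counts were handled in numpy 2.4.6 and pandas 2.3.3, sequences in Biopython 1.88 and plots in matplotlib 3.10.9, all under Python 3.11.15, and the counting was tested on simulated data. Gene positions and coding sequences came from the GENCODE M21 annotation and transcripts (GRCm38), and promoters from RefSeq. How reads that match several kallikreins were assigned is not given in the sources used here.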

Additional observations from a re-analysis of the deposited data

How the results depend on the processing

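The share of barcodes that were members was 4.44%. It was 6.17% with a threshold of 25 UMIs per 10000, 2.76% with 100, 3.62% with *Mucl2* under 15%, 3.76% with 0 UMIs of the 4 excluding duct genes and 3.82% when barcodes needed 200 genes and no more than 20% mitochondrial UMIs. Without members holding *Dcpp* or *Smgc*, an alternative chosen after seeing the data, it was also 3.76%. On UMIs other than kallikrein and serous secretory genes, 351 genes were at least 2-fold higher and 420 lower, against 179 and 926. With members held to the keratin limits of the low-kallikrein cells, chosen after seeing the data, 511 genes were lower. The count higher in the top tier was 190 without members holding *Dcpp* or *Smgc*, against 358. In the same alternative the log2 ratios of *Bpifa2* and *Pglyrp1* turned from 2.21 to -0.38 and from 1.24 to -0.91. Of the 52 single-gene log2 ratios recomputed in it, 43 stayed within their counting interval, 7 left it and these 2 turned sign. Of 557 single-gene log2 ratios recomputed over all alternatives, 440 stayed within their counting interval, 115 left it with the same sign or without having been past 2-fold, and 2 turned sign. Subtracting the mean UMIs of a lymphoid barcode, which also shrinks the denominator, took the level in members from 1658 to 3529 for *Klk1*, 86.9 to 184 for *Crisp3*, 11.4 to 5.77 for *Bpifa2* and 1.18 to 0 for *Pglyrp1*, and 19 of 37 log2 ratios left their interval. No paired analysis was possible because the matrix does not separate the samples and no result came from a test. The pooled matrix gives no spread between animals, the low levels of *Ren1*, *Hpn* and *Ngfr* rest on few UMIs, and reads shared by near-identical kallikreins limit *Klk1*, *Klk1b5*, *Klk1b21*, *Klk1b24* and *Klk1b27*.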
